A study of Caenorhabditis elegans with 11 samples.

Results

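Adult worms aged 5 days were compared with adults aged 1 day for every microRNA (miRNA) hairpin with enough counts. The 5-day group had 3 small RNA libraries and the 1-day group had 3, which makes 6 of the 11 libraries of an ageing series that also holds 3 libraries at 10 days and 2 at 20 days. All were made from whole hermaphrodites of N2, the wild-type reference strain of the nematode Caenorhabditis elegans, and the labels name no mutation or treatment. The stage at which day counting began was not given in the sources used here. Of 250 hairpins in the count table, 145 were tested, and they held 99.99% of the counts of the 11 libraries. The other 105 were rarely read: 38 of them had no count in the 6 libraries, and the highest had 34 counts summed over the 6.

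miRNAs are short RNAs cut from hairpin precursors, and each guides an Argonaute protein to messenger RNAs that pair with its seed, the bases near its 5′ end. Hairpins whose mature miRNAs share a seed form a family and can act on shared targets, and hairpins that lie close together on a strand can be cut from a common primary transcript. In C. elegans the lin-4 and let-7 families time the larval stages, other miRNAs are restricted to muscle, gut, glia or neurons, and several lengthen or shorten adult life when they are removed.

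Total counts were 1658343, 1233398 and 1660390 in the 5-day libraries, against 1414304, 1491708 and 1800586 in the 1-day libraries, and 172 to 187 hairpins had a count in each. Levels are CPM (a count scaled to a common library size) after TMM scaling, in which 1 count was worth 0.552 to 0.785 CPM at 5 days and 0.533 to 0.632 CPM at 1 day. They are abundances relative to the other miRNAs of a library, and reads were not divided by arm of the hairpin. In whole worms, fewer cells of a type and less RNA per cell cannot be told apart. The labels do not say whether same-age libraries were grown as separate cultures, and p-values here therefore reflect a spread between libraries that could be technical. Across hairpins, which are no independent replicates, Pearson's r of log2 CPM was 0.972 to 0.984 between a 5-day and a 1-day library. It was 0.993 to 0.997 between libraries of the same age among the 6. The offset for low counts differed, a prior count between ages and 1 CPM added within an age, so these ranges are not directly comparable. When the number after the letter L in each sample description is taken as a sequencing lane (no label says so outright), lane 3 held both 5-day replicate 1 and 1-day replicate 3, and the other 4 libraries were each the only one of the 6 in their lane.

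The 5-day worms differed from 1-day worms in 69 of 145 hairpins (47.6%) by edgeR's quasi-likelihood test (adjusted p under 0.05, Benjamini-Hochberg), and those that rose and those that fell were nearly balanced. Of all tested hairpins 31 (21.4%) were higher and 38 (26.2%) were lower at 5 days, and the median log2 change was -0.00. The sizes of change differed by abundance. At 1000 CPM or more, 13 of 44 hairpins rose and 11 fell, but 4 changed over 2-fold. Between 50 and 1000 CPM, 11 of 53 rose and 14 fell, 10 of them over 2-fold. Under 50 CPM, where the median standard error of the log2 change was 0.28 rather than 0.13, 7 of 48 rose and 13 fell, 14 of them over 2-fold. The 3 libraries of 1 age lay wholly above or below the 3 of the other in 76 of 145 hairpins (52.4%), among them 67 of the 69 called. With upper-quartile scaling, which moved the log2 changes by a median of -0.15, 21 hairpins rose and 46 fell.

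**Figure D1:**
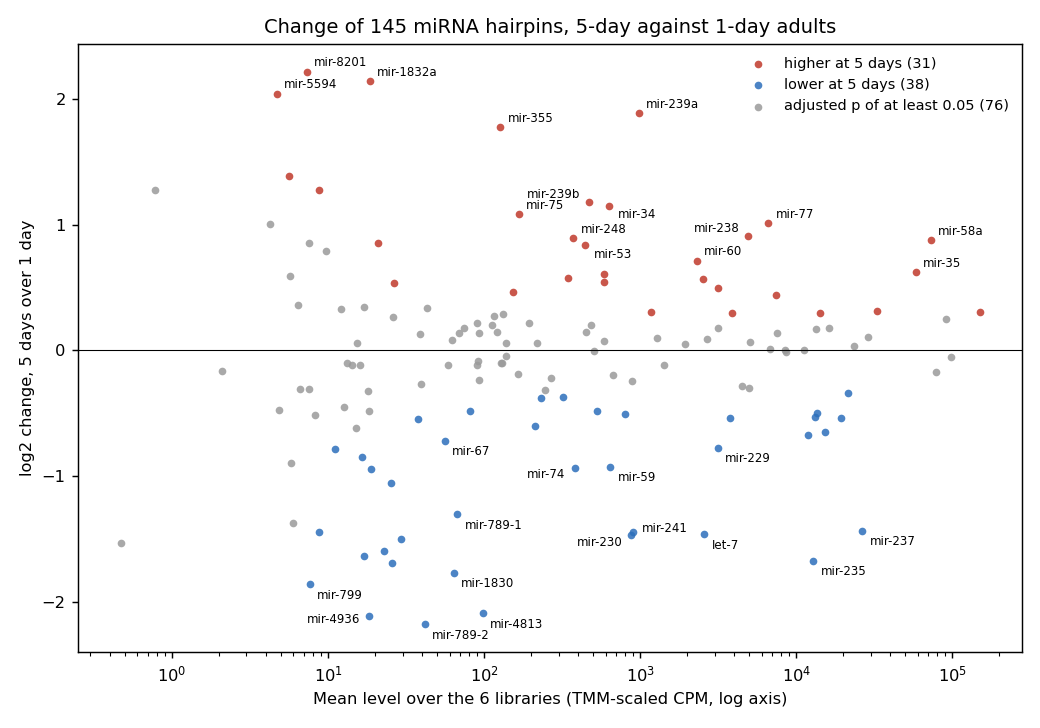
Log2 change at 5 days over 1 day (vertical axis) against the mean level over the 6 libraries (TMM-scaled CPM, log axis), with each of the 145 tested hairpins a point and colour marking edgeR's call at an adjusted p of 0.05. At 1000 CPM or more, 4 hairpins changed over 2-fold (mir-77, mir-235, let-7 and mir-237), and the points beyond a log2 change of 2 all lie under 100 CPM.

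Among the hairpins that time development, let-7, mir-241 and mir-237 were less abundant in 5-day worms, each by more than 2.5-fold. let-7, which represses lin-41 and times the passage from larva to adult, had 1444, 1379.9 and 1295 CPM in the 5-day libraries, against 3523, 3575 and 4259 CPM in the 1-day libraries. Every 5-day library lay below every 1-day library, and the log2 change was -1.46 ± 0.13 (SE; adjusted p = 1.05e-07). mir-241, which with its family members mir-48 and mir-84 lowers hbl-1 in earlier larval stages, had 517, 469.7 and 469.7 CPM at 5 days, against 1622, 1225 and 1116 CPM at 1 day (log2 change -1.44 ± 0.15, adjusted p = 3.60e-07). mir-237, the family partner of lin-4, had 16793, 14112 and 12012 CPM at 5 days, against 38284, 39514 and 38211 CPM at 1 day (log2 change -1.43 ± 0.13, adjusted p = 1.43e-07). The 3 changes were of nearly the same size, while the levels of these hairpins differed widely, mir-237 being the most abundant.

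The relatives of these hairpins did other things. mir-48 averaged 15693 ± 770.5 CPM in 5-day and 12757 ± 502 CPM in 1-day worms (SD, n = 3 each), a log2 change of 0.30 ± 0.11 (adjusted p = 0.0300). mir-84 averaged 3704 ± 459 CPM at 5 days and 2631 ± 227 CPM at 1 day (log2 change 0.49 ± 0.16, adjusted p = 0.0154). Neither passed with upper-quartile scaling (0.14 and 0.34), and each lost its call without some single library: mir-48 without 1-day replicate 1 (0.26) or 5-day replicate 1 (0.24), and mir-84 without 1-day replicate 3 (0.45). mir-793, a less studied member of the let-7 family, fell, with 147, 193 and 164 CPM at 5 days, against 255, 247 and 261 CPM at 1 day (log2 change -0.60 ± 0.13, adjusted p = 7.65e-04). The remaining family members mir-794 (0.06 ± 0.16) and mir-795 (-0.08 ± 0.15) did not pass. lin-4, which lowers lin-14 and lin-28 early in larval life, had 665, 661 and 545 CPM at 5 days, against 706, 687 and 755 CPM at 1 day. All 3 values were lower at 5 days, but the log2 change of -0.20 ± 0.12 did not pass (adjusted p = 0.210); it passed when libraries were scaled by upper quartiles (-0.36) or total counts (-0.29), with hairpins of at least 50 CPM alone (-0.27) and without 5-day replicate 1 (-0.28). Of the 6 timing hairpins listed, 2 thus rose and 3 fell, against 21.4% higher and 26.2% lower over all 145. The median log2 change of the list, -0.82 against -0.00 over all 145, lay between the values of mir-237 and lin-4 and near neither. This list was not tested as a group.

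The mir-238 family, whose members are known for opposite effects of their loss on lifespan, was higher at 5 days in each of its 3 hairpins. Over all 145 tested hairpins 21.4% were called higher. mir-239a had 1889, 1532 and 1197 CPM in 5-day worms, against 419.7, 369.8 and 456 CPM in 1-day worms. No 5-day library came near the highest 1-day value, and mir-239a was 3.71-fold higher, with a log2 change of 1.89 ± 0.19 (adjusted p = 2.61e-07). mir-239b, which lies beside it on the other strand of chromosome X, had 798, 726 and 442 CPM at 5 days, against 314, 275 and 276 CPM at 1 day (log2 change 1.18 ± 0.24, adjusted p = 5.20e-04). Its 3 values at 5 days were spread more widely than those of mir-239a in proportion, and the third was the lowest for both. mir-238, on chromosome III, had 6334, 7138 and 5847 CPM at 5 days, against 3568, 3312 and 3391 CPM at 1 day (log2 change 0.91 ± 0.12, adjusted p = 5.07e-06).

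mir-34, a conserved miRNA of the DNA damage response, also rose, with 937, 919.7 and 757 CPM at 5 days, against 369.8, 373 and 431 CPM at 1 day (log2 change 1.15 ± 0.14, adjusted p = 3.24e-06). mir-71, which acts in neurons and the intestine and whose loss shortens life, averaged 8494 ± 426 CPM in 5-day worms and 6271 ± 209 CPM in 1-day worms (SD, n = 3 each; log2 change 0.44 ± 0.11, adjusted p = 0.00361). The call of mir-71 was lost with upper-quartile scaling (0.28, adjusted p = 0.113). mir-83, the worm relative of vertebrate miR-29, was called higher (log2 change 0.54 ± 0.21, adjusted p = 0.0427), but its values overlapped, with 950.0, 396 and 731 CPM at 5 days, against 492, 488 and 447 CPM at 1 day. The call was lost in 13 of the 20 alternatives, among them the omission of 5-day replicate 1 (0.25), 5-day replicate 3 (0.50), any 1-day library (0.50 to 0.61), 10-day replicate 1 or either 20-day library (0.57). mir-246 (0.14 ± 0.11), mir-80 (0.25 ± 0.10), mir-228 (-0.17 ± 0.13) and lin-4, described above, did not pass. With DESeq2 mir-246 (0.20) and mir-80 (0.32) did, and mir-80 passed in further alternatives given below. Together with the falls of let-7 and mir-235, the list of 12 hairpins linked to lifespan or stress had 6 rises, 2 falls and 4 that did not pass, with a median log2 change of 0.34. Over all 145 hairpins 21.4% rose and 26.2% fell, and the list was not tested as a group.

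**Figure D2:**
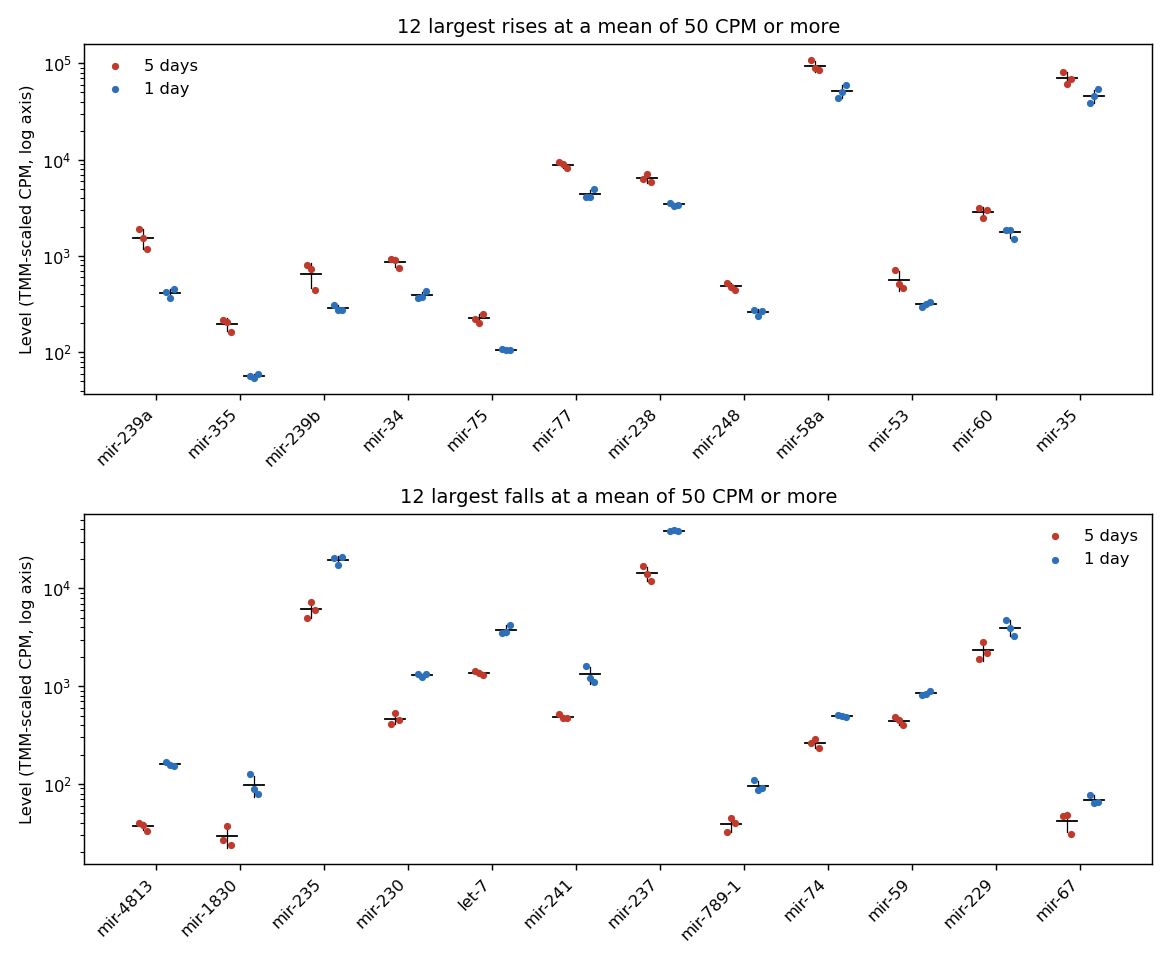
Levels (TMM-scaled CPM, log axis) of the 12 hairpins with the largest rises and the 12 with the largest falls among called hairpins of at least 50 CPM, with 5 days left of 1 day in each panel. Points are the 3 libraries of an age, lines their mean and bars the SD. In all 24 hairpins the 3 points of the 5-day group lie on one side of the 3 points of the 1-day group. The 24 were picked for large changes in these same libraries, and 67 of the 69 called hairpins were separated in this way.

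The other large rises among hairpins of at least 50 CPM were those of mir-355, mir-75, mir-77, mir-248, mir-58a and mir-53. mir-355, which lies between genes on chromosome II (11833536 to 11833645, minus strand, WBcel235), had 218, 207 and 163 CPM at 5 days, against 56.9, 54.7 and 59.7 CPM at 1 day. The 1-day values were nearly level, and the log2 change was 1.78 ± 0.14 (adjusted p = 1.50e-08). mir-75 had 224, 203 and 253 CPM at 5 days, against 109, 106 and 107 CPM at 1 day (log2 change 1.08 ± 0.13, adjusted p = 1.70e-06). mir-77 had 9371, 8987 and 8209 CPM at 5 days, against 4113, 4134 and 4900.4 CPM at 1 day (log2 change 1.01 ± 0.12, adjusted p = 2.12e-06). mir-77 was the most abundant hairpin that rose over 2-fold. mir-248 averaged 483 ± 43.6 CPM at 5 days and 261 ± 19.1 CPM at 1 day (SD, n = 3 each; log2 change 0.89 ± 0.12). mir-53, of the mir-51 family, averaged 566 ± 136 CPM at 5 days and 317 ± 19.4 CPM at 1 day (log2 change 0.84 ± 0.21). Its first 5-day library, with 721 CPM, was the highest of the 3.

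Outside the timing families, mir-235 and mir-230 had the steepest falls among hairpins of at least 100 CPM that lie between genes. mir-235, the worm relative of vertebrate miR-92, keeps blast cells at rest in starved larvae. It had 4945, 7339.6 and 6079 CPM in 5-day worms, against 20572, 17166 and 20961 CPM in 1-day worms, and the log2 change was -1.68 ± 0.15 (adjusted p = 1.00e-07). mir-230 had 413, 530.1 and 454 CPM at 5 days, against 1322, 1228 and 1321 CPM at 1 day (log2 change -1.47 ± 0.18, adjusted p = 2.46e-06). In both hairpins the highest 5-day library had less than 0.5 of the lowest 1-day library. mir-59 had 486, 447 and 398 CPM at 5 days, against 808, 835 and 886 CPM at 1 day (log2 change -0.93 ± 0.12, adjusted p = 3.94e-06). mir-67 had 47.5, 48.7 and 30.9 CPM at 5 days, against 77.7, 64.1 and 65.6 CPM at 1 day (log2 change -0.72 ± 0.18, adjusted p = 0.00294).

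The steepest fall of all hairpins with at least 50 CPM was that of mir-4813, at 40.2, 38.5 and 33.1 CPM in 5-day worms, against 167, 157 and 153 CPM in 1-day worms (log2 change -2.09 ± 0.14, adjusted p = 2.69e-09). This hairpin lies within an exon of idhg-1, a gene for a subunit of isocitrate dehydrogenase, on the same strand (III, 4571640 to 4571716, plus strand, WBcel235). Fragments of that messenger RNA cannot be told apart from the hairpin in these counts. mir-1830, within an intron of paic-1, a gene of purine synthesis, on the same strand, had 26.8, 36.9 and 23.7 CPM at 5 days, against 125, 90.0 and 79.5 CPM at 1 day (log2 change -1.77 ± 0.20, adjusted p = 8.69e-07). mir-789-1 and mir-789-2 are copies with nearly the same name at separate places on chromosome IV, and reads common to both cannot be assigned, so each value is uncertain. mir-789-1 also lies within an exon of Y51H4A.24 on the same strand, and fragments of that messenger RNA cannot be told apart from it. mir-789-1 averaged 38.9 ± 6.30 CPM at 5 days and 95.9 ± 11.8 CPM at 1 day, and mir-789-2 averaged 15.3 ± 4.06 CPM at 5 days and 68.1 ± 4.58 CPM at 1 day (SD, n = 3 each), with log2 changes of -1.31 ± 0.15 and -2.18 ± 0.21.

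Of 8 tissue-restricted hairpins 2 rose, 2 fell and 4 did not pass, with a median log2 change of 0.09, a called share near the 47.6% of all tested hairpins. mir-60, an intestinal miRNA whose loss lengthens life under oxidative stress, had 3123, 2505 and 3005 CPM in 5-day worms, against 1880.4, 1875 and 1506 CPM in 1-day worms (log2 change 0.71 ± 0.15, adjusted p = 6.41e-04). mir-786, which the intestine needs for its defecation rhythm, had 369, 407 and 469 CPM at 5 days, against 312, 246 and 279 CPM at 1 day (log2 change 0.57 ± 0.14, adjusted p = 0.00237). With a fixed term for lane, mir-786 no longer passed (0.38). The ages did not overlap for either. mir-240, the neighbour of mir-786 on its strand and the remaining member of the list, averaged 3350.2 ± 543 CPM at 5 days and 2960.3 ± 771 CPM at 1 day (SD, n = 3 each). Its ages overlapped and it did not pass (log2 change 0.18 ± 0.21, adjusted p = 0.510), but with a fixed term for lane it passed as higher (0.63).

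Muscle and glial hairpins did not pass the test. mir-1, which acts in muscle and at the neuromuscular junction, had 680.4, 432 and 414 CPM at 5 days, against 453, 496 and 579.6 CPM at 1 day. These values overlapped fully, the log2 change was -0.00 ± 0.18 (adjusted p = 0.990), and 5-day replicate 1 was the highest of the 6. The glial mir-228 averaged 74316 ± 10124 CPM at 5 days and 83812 ± 9998 CPM at 1 day (SD, n = 3 each). Of the neuronal hairpins, lsy-6, which sets the asymmetry of a pair of taste neurons, had 7.91, 12.6 and 14.9 CPM at 5 days, against 22.8, 18.8 and 22.4 CPM at 1 day (log2 change -0.85 ± 0.25, adjusted p = 0.00912). mir-124, of ciliated sensory neurons, had 6.69, 10.2 and 7.73 CPM at 5 days, against 13.3, 13.5 and 14.9 CPM at 1 day (log2 change -0.78 ± 0.26, adjusted p = 0.0155). These are low levels, and the calls did not survive every setting: lsy-6 lost its call with DESeq2 (-0.77, adjusted p = 0.0565) and without 5-day replicate 1 (-0.63), and mir-124 with DESeq2 (-0.71), with a fixed term for lane (-1.07) and without 1-day replicate 3 (-0.73) or 5-day replicate 1 (-0.68). The neuronal mir-791 (0.27 ± 0.24) did not pass, and it passed as higher with lane as a fixed term (0.80).

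The mir-35 family, made in oocytes and embryos and needed for embryos to survive, was taken as a marker of embryos and germline in these whole hermaphrodites. Whether its level follows their amount at these ages was not tested. All 8 hairpins had counts in each of the 6 libraries. Together they took 20.8%, 19.0% and 21.1% of the tested counts in the 5-day libraries, against 17.4%, 17.7% and 21.4% in the 1-day libraries, and the ages overlapped (exact two-sided permutation p = 0.4). Of the 8, mir-35 and mir-36 rose and the other 6 did not pass. In single alternatives mir-40 passed as lower with a fixed term for lane (-0.23, adjusted p = 0.00682), and mir-38 passed as higher without 5-day replicate 3 (0.33). mir-35 had 81424, 61564 and 69035 CPM at 5 days, against 38854, 45367 and 53367 CPM at 1 day (log2 change 0.62 ± 0.13, adjusted p = 5.69e-04). mir-36 had 3246, 3059.9 and 2735 CPM at 5 days, against 2077, 2005 and 2019 CPM at 1 day (log2 change 0.57 ± 0.13, adjusted p = 0.00205). mir-40, the most abundant of the family, averaged 96003 ± 2024 CPM at 5 days and 99751 ± 19967 CPM at 1 day (SD, n = 3 each), where 1-day replicate 3 stood highest at 122463 CPM. The part of embryos or germline in other changes was not tested.

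The bantam-related mir-58 family took the largest share of counts at both ages, and a larger one at 5 days. It held 39.6%, 38.9% and 38.7% of the tested counts in the 5-day libraries, against 30.9%, 32.6% and 32.6% in the 1-day libraries, a difference of 7.01 percentage points. The ages did not overlap, but with 3 libraries each the smallest exact permutation p is 0.1 (adjusted 0.171 over 12 shares), so no share could pass. Most of the difference lay in mir-58a and mir-82. mir-58a had 108232, 88653 and 85029.6 CPM at 5 days, against 44007, 50107 and 59539 CPM at 1 day (log2 change 0.88 ± 0.13, adjusted p = 2.10e-05). mir-82, the most abundant hairpin at both ages, averaged 165322 ± 12662 CPM at 5 days and 133580.0 ± 12853 CPM at 1 day (SD, n = 3 each; log2 change 0.31 ± 0.11, adjusted p = 0.0228). The call of mir-82 was lost with upper-quartile scaling (0.14), with hairpins of at least 50 CPM alone (0.24) and without 1-day replicate 1 (0.20). mir-81 fell, averaging 18888 ± 1701 CPM at 5 days and 23829 ± 1556 CPM at 1 day (log2 change -0.34 ± 0.11, adjusted p = 0.0194), a call lost without 1-day replicate 3 (-0.28) or 5-day replicate 3 (-0.31). mir-80 averaged 98624 ± 7495 CPM at 5 days and 83055 ± 3822 CPM at 1 day (log2 change 0.25 ± 0.10, adjusted p = 0.0582) and passed in 6 alternatives: RLE scaling (0.32), DESeq2, lane as a fixed term (0.36), and the omission of 5-day replicate 2 (0.31) or either 20-day library (0.27).

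Counts were more concentrated in a few hairpins at 5 days. The 10 most abundant hairpins (mir-82, mir-40, mir-80, mir-228, mir-58a, mir-35, mir-72, mir-70, mir-237 and mir-51) took 72.9% ± 1.55 of the tested counts in 5-day worms and 67.6% ± 1.01 in 1-day worms (SD, n = 3 each). Other family shares differed in their values too, but with 3 libraries of each age none could pass. The lin-4 family, nearly all mir-237, held 1.73%, 1.53% and 1.37% at 5 days, against 4.36%, 4.58% and 4.06% at 1 day. The mir-63 family held 3.18% ± 0.44 at 5 days and 4.69% ± 0.38 at 1 day, and the mir-50 family 1.03% ± 0.23 at 5 days and 1.72% ± 0.10 at 1 day. The mir-51 family, which acts in embryos, held 6.30% ± 0.27 at 5 days and 7.09% ± 0.19 at 1 day. The mir-238 family held 0.894% ± 0.077 at 5 days and 0.454% ± 0.026 at 1 day. In each of these the ages did not overlap, which also held for 76 of 145 single hairpins (52.4%). The let-7 family hardly differed in its summed share, with 2.24% ± 0.05 at 5 days and 2.31% ± 0.07 at 1 day. Of its 7 hairpins 5 were called, against 47.6% of all 145 tested hairpins. mir-48 held most of the family's counts at both ages.

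**Figure D3:**
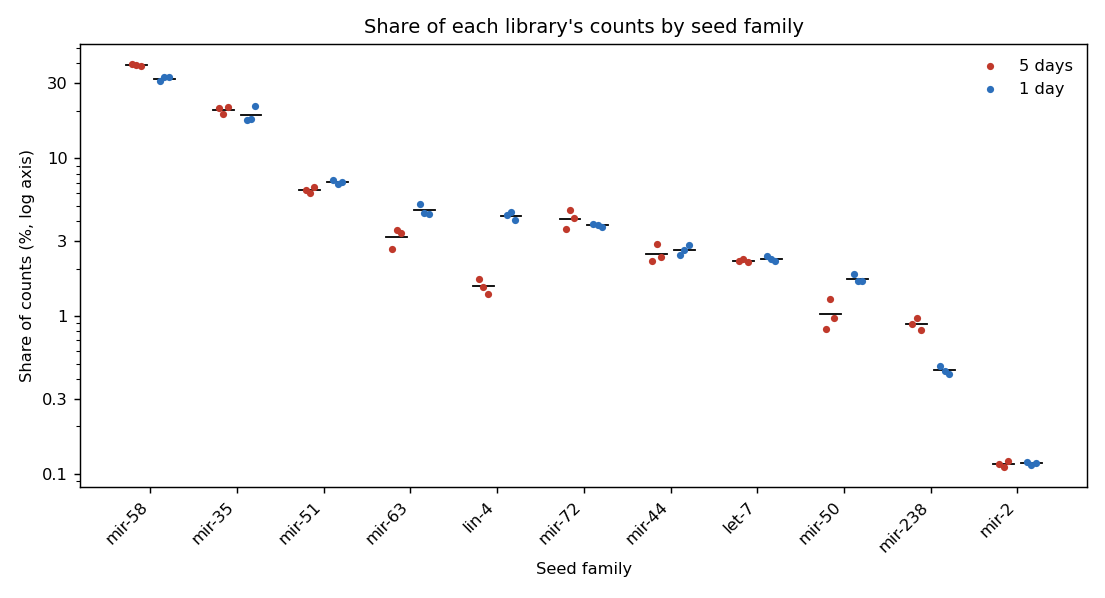
Share of the tested counts (log axis) taken by each seed family, with 5 days left of 1 day. Points are the 3 libraries of an age and lines their mean. The mir-58 family lies near 39% at 5 days and near 32% at 1 day, and the points of the let-7, mir-35, mir-44, mir-72 and mir-2 families overlap between the ages.

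Within several families, members were called in opposite directions. In the mir-72 family mir-72 rose (log2 change 0.32 ± 0.12) while mir-73 (-0.54) and mir-74 (-0.93) fell. The call of mir-72 was lost in 7 alternatives, among them a fixed term for lane (0.09), upper-quartile scaling (0.16) and the omission of 5-day replicate 2 (0.22), 5-day replicate 3 (0.34) or 1-day replicate 1 (0.27). In the mir-50 family mir-50 (-0.51) and mir-90 (-0.68) fell and mir-62 was called higher (0.54 ± 0.21, adjusted p = 0.0439). The call of mir-62 was lost in 12 alternatives, among them the omission of any 5-day library (0.44 to 0.58), 1-day replicate 1 (0.44) or 3 (0.43), 10-day replicate 1 or either 20-day library (0.55). In the mir-51 family mir-53 rose, mir-55 fell by 0.53 on the log2 scale and the other 4 did not pass, of which mir-52 passed as lower with upper-quartile scaling (-0.44) or without 5-day replicate 1 (-0.49), and mir-56 as higher with RLE scaling or DESeq2 (0.25 in both). In the mir-2 family mir-43 (-0.55) and mir-797 (-1.44) fell, and neither passed with lane as a fixed term (mir-43 also not with DESeq2, at -0.48, or without 1-day replicate 2, at -0.47), while mir-2 (0.15) and mir-250 (0.07) did not pass. In the mir-44 family, the tested hairpins (mir-61, mir-44 and mir-45) had log2 changes between -0.01 and 0.01. With a fixed term for lane mir-44 and mir-45 both passed as lower, each at -0.33. mir-44 and mir-45 had nearly equal counts in each library, such as 13302 and 13069 in 5-day replicate 1, so reads of each may have been counted for both and their values are uncertain. Of the 11 families, the mir-238 family was the only one in which every tested member was called in the same direction. Over all 145 tested hairpins 21.4% were called higher.

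Hairpins that neighbour each other on a strand were compared next, since the ratio of neighbours within a library does not depend on how libraries are scaled. There were 18 clusters with at least 2 tested hairpins, 49 hairpins in all, each cluster with gaps of at most 10000 bases in the WBcel235 annotation. In 4 of them at least 1 member rose and at least 1 fell, in 2 at least 2 members were called and in 1 direction only, 7 had a single call and 5 had none. Among 27 ratios of adjacent hairpins with at least 10 CPM each, 15 (55.6%) did not overlap between the ages. That share is near the 76 of 145 (52.4%) of single hairpins whose ages did not overlap. Each of the 15 had the exact two-sided permutation p of 0.1 that is the smallest possible. These ratios were chosen after the data were seen.

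The largest shift was within the cluster of mir-73, mir-74 and mir-75 on chromosome X. mir-74 had 1.18, 1.41 and 0.917 counts for each count of mir-75 in the 5-day libraries, against 4.69, 4.68 and 4.53 in the 1-day libraries, a ratio 4.02-fold lower at 5 days. On chromosome V, mir-241 had 0.0316, 0.0296 and 0.0316 counts for each count of mir-48 at 5 days, against 0.127, 0.1002 and 0.0843 at 1 day, 3.31-fold lower at 5 days. Both belong to the let-7 family and lie under 2 kb apart (mir-48 at 14364412 to 14364509 and mir-241 at 14366188 to 14366283, minus strand). On chromosome III, mir-90 had 1.21, 1.64 and 1.41 counts for each count of mir-238 at 5 days, against 4.31, 4.15 and 4.44 at 1 day, 3.04-fold lower at 5 days. In that cluster mir-90 fell, mir-238 rose and mir-80 did not pass. mir-90 lies in an intron of K01F9.2 on its strand (8873987 to 8874084) and mir-238 between genes (8867328 to 8867425, minus strand). Whether they share a primary transcript was not tested.

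In the intron of gcn-1, a gene of the nutrient-sensing pathway that activates GCN2, all 4 hairpins of the mir-63 family there were called. Over all 145 tested hairpins 47.6% were called. mir-229 fell by 0.78, mir-64 by 0.49 and mir-65 by 0.65 on the log2 scale, while mir-66 was called higher (0.30 ± 0.12, adjusted p = 0.0489), a call lost in 10 alternatives, among them upper-quartile scaling (0.14) and the omission of 5-day replicate 1 (0.22), any 1-day library (0.28 to 0.31) or 10-day replicate 3 (0.30). The ratio of mir-65 to mir-66 was 2.24, 3.04 and 3.10 at 5 days, against 5.63, 5.10 and 5.37 at 1 day. It was 1.94-fold lower at 5 days with no overlap, whatever the scaling. The fifth member, mir-63, lies elsewhere and rose by 0.61 ± 0.12. mir-230 had 12.2, 22.9 and 15.7 counts for each count of its neighbour mir-791 at 5 days, against 49.2, 43.1 and 76.2 at 1 day. Both lie between genes on the plus strand of X, mir-230 at 5803892 to 5803989 and mir-791 at 5809349 to 5809433.

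In the mir-35 cluster most ratios of neighbours overlapped between the ages. mir-35 had 25.1, 20.1 and 25.2 counts for each count of mir-36 at 5 days, against 18.7, 22.6 and 26.4 at 1 day, and the ages overlapped. The next pair, mir-36 and mir-37, did not overlap, with 0.203, 0.249 and 0.195 counts of mir-36 for each count of mir-37 at 5 days, against 0.187, 0.172 and 0.137 at 1 day, 1.31-fold higher at 5 days. From mir-37 to mir-41 each ratio overlapped. In the cluster of mir-357 and mir-358, in an intron of symk-1 on the other strand, both fell, with log2 changes of -1.59 and -1.05; mir-357 was at -2.23 with a fixed term for lane.

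**Figure D4:**
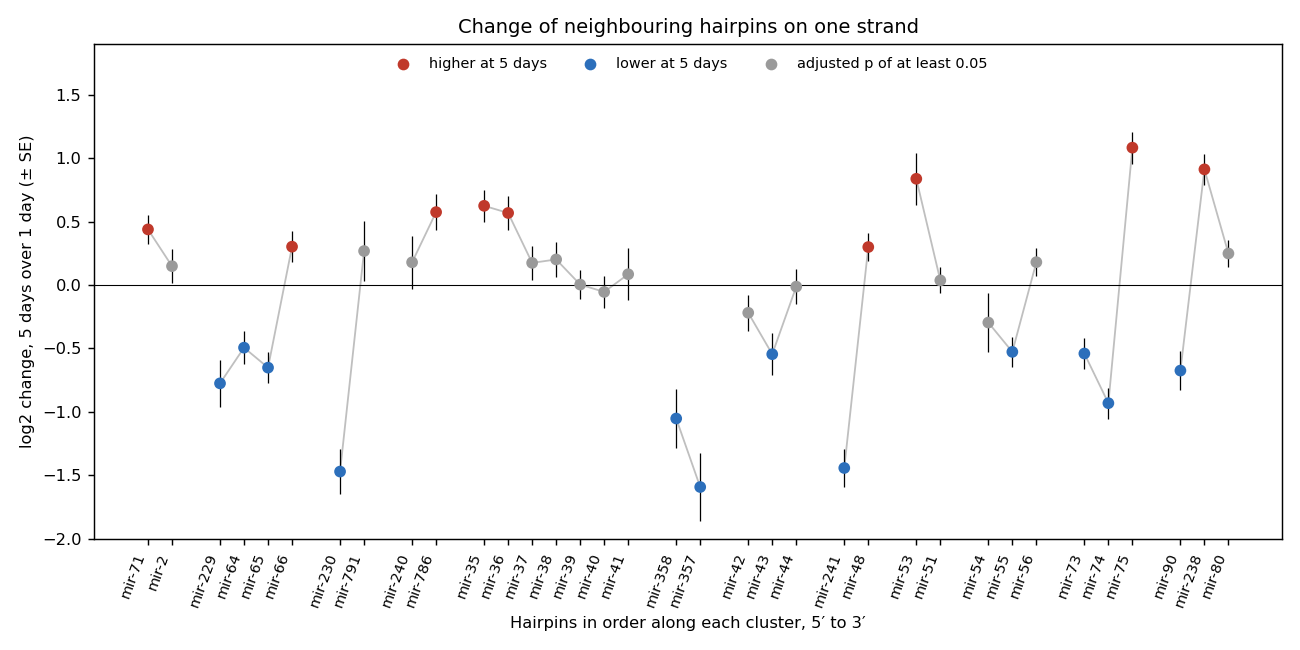
Log2 change at 5 days over 1 day, with its standard error as bars, for members of clusters of neighbouring hairpins in their 5′ to 3′ order; colour marks edgeR's call. mir-74 and mir-75, mir-241 and mir-48, mir-90 and mir-238, and mir-65 and mir-66 lie side by side and on opposite sides of 0.

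Some of the widest changes were found in hairpins under 50 CPM, several of them in introns. mir-8201, in an intron of the linker histone gene hil-2, had 24, 14 and 19 counts at 5 days, against 5, 3 and 5 counts at 1 day (log2 change 2.22 ± 0.37, adjusted p = 5.37e-05). mir-1832a, in an intron of the splicing factor gene rsp-8, had 54, 42 and 46 counts at 5 days, against 11, 6 and 18 counts at 1 day (log2 change 2.14 ± 0.28, adjusted p = 4.14e-06). mir-5594, in an intron of K12D12.4, had 14, 13 and 8 counts at 5 days, against 0, 4 and 5 counts at 1 day (log2 change 2.04 ± 0.57, adjusted p = 0.00544), and a fixed term for lane ended the call (1.85, adjusted p = 0.114). In the other direction, mir-4936 had 7, 11 and 14 counts at 5 days, against 58, 50 and 44 counts at 1 day (log2 change -2.11 ± 0.29, adjusted p = 8.76e-06). mir-799 had 2, 9 and 4 counts at 5 days, against 18, 22 and 21 counts at 1 day (log2 change -1.86 ± 0.47, adjusted p = 0.00294). The change of mir-799 was -3.29 with a fixed term for lane and -2.71 without 5-day replicate 2. Each of these had ages that did not overlap, on totals of few counts, and counts without molecular identifiers carry more than counting error.

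By place in the annotation, 22 of 34 tested hairpins in an intron on the host's strand were called, 10 higher and 12 lower, against 38 of 87 between genes, 19 higher and 19 lower, and 7 of 18 in an intron on the opposite strand; over all 145 hairpins 47.6% were called, and the differences between places were not tested. The count table holds no host messenger RNA, so reads of a host intron cannot be separated from those of its hairpin. By chromosome, 4 of 14 were called on I and 11 of 18 on III, 8 of them lower, and these counts were not tested against each other either. On X, which held the most tested hairpins, 12 of 48 rose and 14 fell.

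The 10-day and 20-day libraries show where the 5-day levels stood in the series. let-7 was lower again, at 1051, 813 and 837 CPM at 10 days and 259 and 282 CPM at 20 days. mir-237 was at 4736, 3896 and 4752 CPM at 10 days and 1284 and 1545 CPM at 20 days. mir-235 differed less after 5 days, with 4201, 4027 and 5037 CPM at 10 days and 5085 and 4527 CPM at 20 days, so that its 20-day values lay near the lowest 5-day library. The lowest values of mir-230 were those of 10 days, at 158, 136 and 237 CPM, and it had 432 and 297 CPM at 20 days. Among the hairpins higher at 5 days, mir-239a had 2128, 2674 and 1620 CPM at 10 days and 2440.5 and 2933 CPM at 20 days. mir-34 had 2233, 1759 and 1772 CPM at 10 days and 3698 and 2981 CPM at 20 days. mir-77 and mir-60 took another course: mir-77 had 11283, 9374 and 10089.7 CPM at 10 days and 4799 and 4272 CPM at 20 days, close to its 1-day level, and mir-60 had 2061, 1689 and 1646 CPM at 10 days and 614 and 815 CPM at 20 days, all lower than every 5-day library. These later levels are given as values, with no test.

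**Figure D5:**
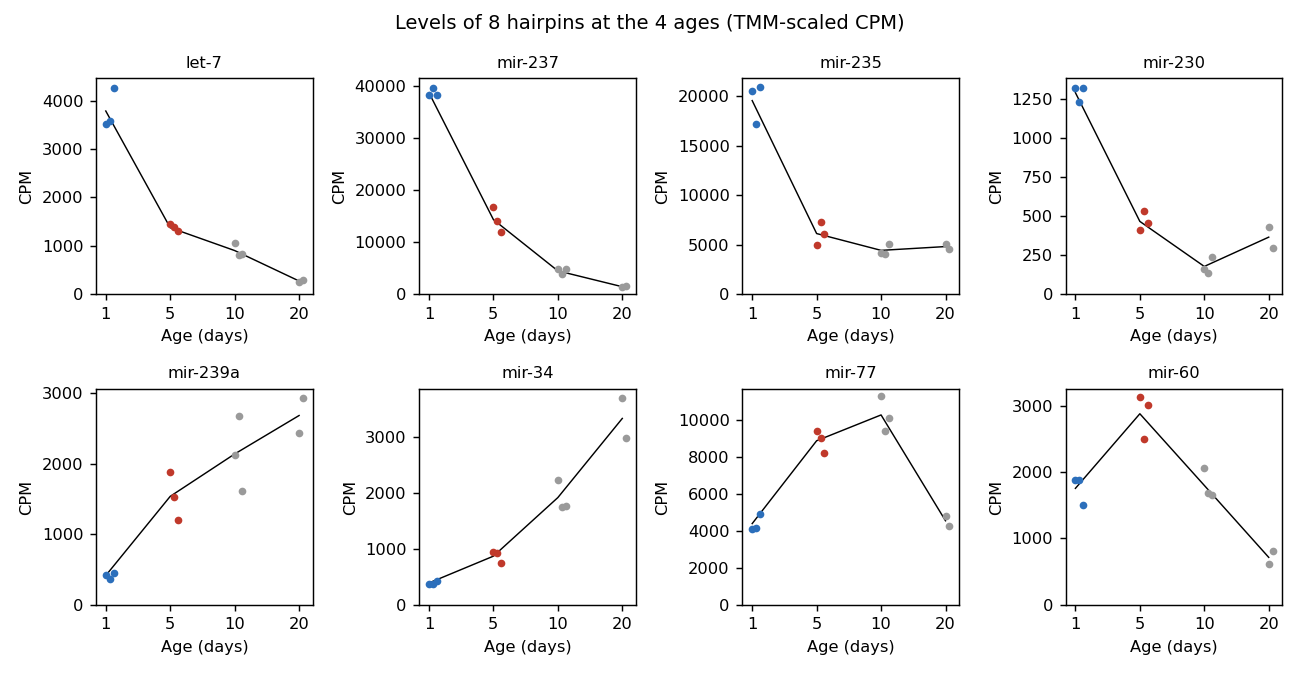
Levels (TMM-scaled CPM, linear axis) of 8 hairpins at 1, 5, 10 and 20 days, with a point per library (3, 3, 3 and 2) and a line through the means. let-7 and mir-237 are lower at each later age, mir-34 is higher at each later age in these means, mir-77 is highest at 10 days and mir-60 at 5 days.

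Within lane 3, the one lane with both ages, each of the 69 called hairpins had the direction of the comparison over all libraries. Both libraries of that lane are among those that gave the calls. In the 67 called hairpins without overlap any such pair must show that direction, so this is no separate check. In lane 3, log2 ratios of 5-day replicate 1 over 1-day replicate 3 were 2.05 for mir-239a, 1.12 for mir-34, -1.56 for let-7, -1.19 for mir-237 and -2.08 for mir-235. They come from 1 library of each age, with no test. With lane as a fixed term, which leaves 1 residual degree of freedom, 65 hairpins were called, 55 of them among the 69. In that fit 1-day replicate 2, 5-day replicate 2 and 10-day replicate 2, each alone in its lane, add nothing to the estimate. It rests on the pair in lane 3 and on a chain through lanes shared with 10- and 20-day libraries. Over the 20 alternatives run, 47 of the 69 calls were kept in every alternative that tested the hairpin, among them all 24 hairpins with the largest rises and falls at 50 CPM or more, and no call was reversed.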

How the data were processed

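Total RNA of whole N2 hermaphrodites was made into TruSeq small RNA libraries, per the labels' protocols. Per hairpin, the authors deposited raw read counts with no normalization, as totals that differ between libraries show. The tools named in the submitters' processing notes are BWA 0.7.12-r1039, SAMtools 1.3.1-9, Trimmomatic 0.36 and CASAVA 1.8.4. The reference, its build, the mismatches allowed and the way reads were counted were not given in the sources used here, so how reads shared by near-identical hairpins were treated is unknown.

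Groups follow the labelled age, and replicate numbers follow accession order and pair nothing. In R 4.3.3, edgeR 4.0.16 kept 145 of 250 hairpins (filterByExpr by age, minimum count 10, minimum total 15), scaled libraries by TMM and fitted a factor of age to all 11 libraries, by which the 10- and 20-day libraries add to the estimate of spread. Quasi-likelihood F-tests of 5 days minus 1 day were adjusted by Benjamini-Hochberg over 145 hairpins, with a threshold of 0.05. Standard errors are the unshrunk log2 change over the square root of F. Levels are CPM scaled by TMM. Shares of counts and ratios of neighbours (0.5 counts added) were compared by exact two-sided permutation over the 6 libraries. The steps were tested on simulated data.

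Coordinates and hosts come from hairpin names in the Ensembl 115 annotation of WBcel235, 1-based: 246 of 250 names were placed, let-7 through its RefSeq symbol. Named hairpins are the 12 largest rises and 12 largest falls among called hairpins of at least 50 CPM, the 10 most abundant, list members and, under 50 CPM, the 3 largest changes in each direction. Others were chosen after their values were seen. The hairpins and the 14 lists were chosen with earlier results of these data known. The alternatives were scaling by RLE, by upper quartiles or by total counts, no filter, a minimum of 50 CPM, DESeq2 1.42.0, robust fitting, lane as a fixed term, the 6 libraries alone, and each library left out.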

Additional observations from a re-analysis of the deposited data

How the results depend on the processing

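Over 20 alternatives, 11 of which left out 1 library, 1895 log2 changes of the 69 called hairpins and of 27 named ones not called were compared. Calls gained by other hairpins are not among them, and lane as a fixed term gave 10 new calls over all 145 tested hairpins. Of the 1895, 1777 stayed on the same side of the threshold, 94 no longer passed, 23 newly passed and 1 newly passed with the opposite sign. Hairpins that stayed uncalled could change sign and still count among the 1777, as mir-1 did, from -0.29 to 0.13. The 1 that passed with the opposite sign was mir-45, at -0.33 (adjusted p = 0.0410) with lane as a fixed term. Its counts are uncertain, and the cause was not tested. Counts of called hairpins were 61 to 73 with a library left out (23 to 33 higher, 34 to 40 lower) and 65 to 74 otherwise, apart from 46 among the 97 hairpins of at least 50 CPM, of which 20 were higher, where fewer hairpins were tested. DESeq2 called 34 higher and 34 lower. Sums scaled by TMM reversed the small differences in share of the let-7 (0.068 percentage points), mir-44 (0.0012) and mir-2 families (0.0054), and that of the mir-2 family ran from -0.0034 to 0.0017 percentage points with a library left out; the ages overlapped in all 3 families. No paired analysis was possible because the labels give no shared replicate numbers. Depth limits the hairpins under 50 CPM, where 1 count is worth over 0.5 CPM and the median standard error was 0.28. mir-49, called lower with overlapping ages, lost its call in 12 alternatives, and was at -0.29 without 5-day replicate 2.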

Other observations

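Some called hairpins belong to no list above. mir-784 averaged 27.1 ± 5.12 CPM in 5-day worms and 14.9 ± 1.06 CPM in 1-day worms (SD, n = 3 each; log2 change 0.86 ± 0.19, adjusted p = 0.00140 in edgeR's quasi-likelihood test). mir-2208a averaged 12.5 ± 3.28 CPM at 5 days and 4.97 ± 1.57 CPM at 1 day (log2 change 1.28 ± 0.30, adjusted p = 0.00170). mir-5552, at 8.18 ± 1.39 CPM at 5 days and 3.10 ± 1.15 CPM at 1 day, lost its call without 1-day replicate 2 (1.15) or 5-day replicate 1 (1.23) and with lane as a fixed term. Among the falls, mir-8199, mir-1817 and mir-2212 had log2 changes of -1.69, -1.63 and -1.51. mir-62 and mir-1020, known as mirtrons, whose ends are cut by splicing, were called in opposite directions, mir-62 higher and mir-1020 lower: mir-62 averaged 31.2 ± 3.06 CPM at 5 days and 21.6 ± 4.26 CPM at 1 day, and mir-1020 averaged 13.1 ± 3.70 CPM at 5 days and 24.8 ± 4.24 CPM at 1 day (log2 change -0.95 ± 0.28, adjusted p = 0.00912). The call of mir-62 was lost in 12 alternatives, and that of mir-1020 with a fixed term for lane (-1.02, adjusted p = 0.0667) and without 5-day replicate 3 (-0.87, adjusted p = 0.0502).

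Hairpins with numbers of 1000 and above, most of them rarely read, had 14 of 33 called, 9 of them lower, against 55 of 112 among the others and 47.6% of all; the difference was not tested. Of the 9 hairpins whose ages did not overlap but which edgeR did not call, lin-4 and mir-80 are described above.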
